A study of Rattus norvegicus with 24 samples.

Results

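Penk, the gene for proenkephalin, was measured by 1 of the 4803 probes on a rat array, and it is 1 of the 4126 genes that the probes name. It was taken up because its score was lower on right than on left ventricle arrays. That difference between ventricles is therefore described here without a test. The rule for the choice did not use the conditions, but Penk was chosen with earlier results of these data known. The series placed heart ventricle RNA of rats on 2-colour arrays, each array setting 1 sample against a common reference pool. Its title names monocrotaline, a plant alkaloid that damages lung vessels and so loads the right ventricle, and compensated and decompensated hypertrophy. All samples were taken at day 14. The right ventricle was represented by 6 CHF, 6 HYP and 6 CON arrays, and the left ventricle by 2 CHF, 2 HYP and 2 CON arrays. CHF is read here as heart failure, HYP as compensated hypertrophy and CON as control, since the labels do not spell the abbreviations out. The sources used here give no strain, age, sex, monocrotaline dose or tissue of the pool.

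Proenkephalin is a precursor protein that prohormone convertases and carboxypeptidases cut into several copies of Met-enkephalin and a single copy of Leu-enkephalin. The enkephalins act mainly on delta and mu opioid receptors, which couple to inhibitory G proteins, and they are broken down by peptidases such as neprilysin. Cardiac muscle of the rat is known to contain much Penk mRNA, and enkephalins made in the heart can act on the myocytes and on nerve endings nearby.

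The deposited values are scores, read as sample over pool and standardised within each array, so the unit of a difference is 1 array SD rather than a log2 ratio. Each array was centred on its median. An array held between 2162 and 3658 values, and Penk had a value on 24 of 24 arrays. Pairs of arrays correlated across probes down to -0.530. The direction of the scores is therefore not settled, and each comparison was also made with the sign turned on 5 arrays, namely 10 and 14 of the CHF right ventricle, 9 of the CHF left ventricle, and both CON left ventricle arrays, 21 and 22. Of 20 cardiomyocyte markers, 12 had a value and 10 had one on every array. A score is relative to a pool, so it does not show whether a transcript was present or absent.

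In the right ventricle, Penk was lowest in the CON samples. The 6 CHF arrays had a lowest score of -2.84, a median of -0.752 and a highest score of -0.051. The 6 HYP arrays had a lowest score of -3.34, a median of -1.40 and a highest score of 0.562. The 6 CON arrays had a lowest score of -5.27, a median of -3.30 and a highest score of -1.60. The groups overlapped. Nevertheless, 4 of 6 CHF arrays and 4 of 6 HYP arrays lay above the highest CON array, and 3 of 6 CON arrays lay below the lowest CHF array and also below the lowest HYP array. The low CHF values came from arrays 10 and 14, at -2.84 and -2.40, and both are arrays whose sign was turned in the alternative. The other 4 CHF arrays had scores of -1.10 or higher. In the HYP group, array 3 was the only right ventricle array with a score above 0, and arrays 5 and 6 were the lowest, at -3.34 and -2.86.

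In the left ventricle, Penk was above the array median on 5 of 6 arrays. CHF arrays 9 and 15 had scores of 1.95 and 1.03. HYP arrays 3 and 5 had scores of 4.42 and -0.912. CON arrays 21 and 22 had scores of 1.47 and 0.01. The 2 HYP arrays were thus the highest and the lowest of the left ventricle arrays and enclosed all others. CHF array 15 and both CON arrays were deposited with 2 decimals, and their Penk scores averaged 0.837, against 1.82 on the other 3 left ventricle arrays.

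**Figure D1:**
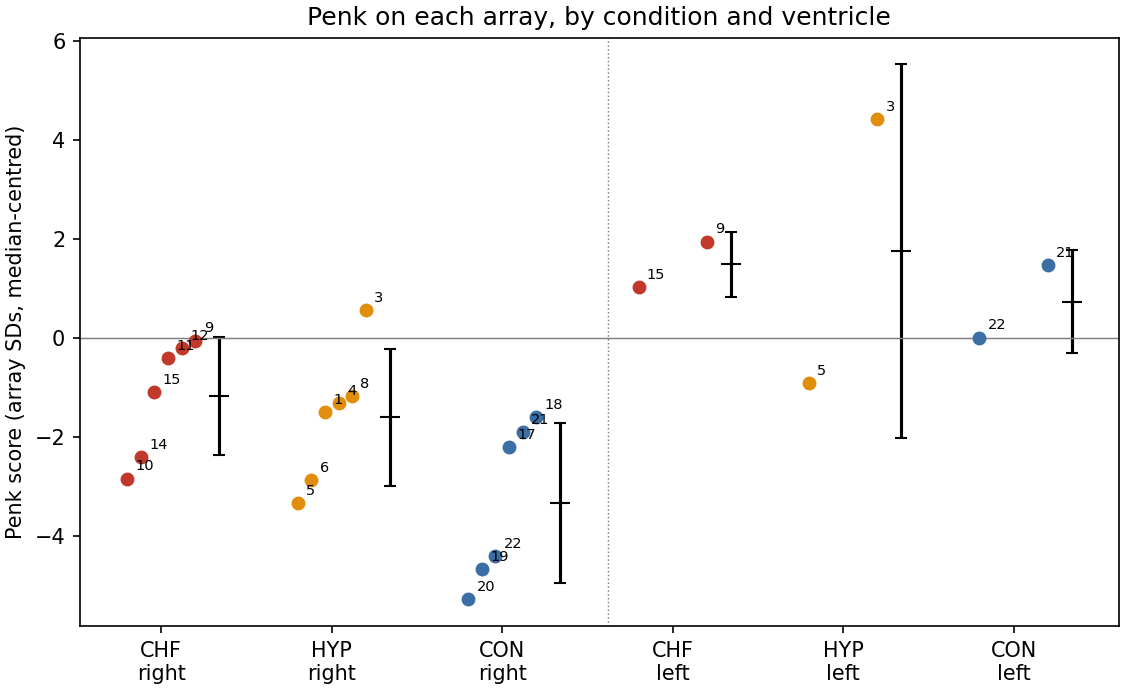
Median-centred Penk score on each array, in array SDs, for the 6 groups of condition and ventricle. Points are arrays with their label number, and the bar beside them is the mean ± SD; the CON right ventricle arrays reach the lowest scores and 17 of 18 right ventricle arrays lie below 0.

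The group means, in falling order, were 1.76 ± 3.77 in HYP left ventricles, 1.49 ± 0.650 in CHF left ventricles and 0.74 ± 1.03 in CON left ventricles (SD, n = 2 each). They continued with -1.17 ± 1.19 in CHF right ventricles, -1.60 ± 1.38 in HYP right ventricles and -3.34 ± 1.62 in CON right ventricles (SD, n = 6 each). The gap between neighbours exceeded their pooled SD in 2 of these 5 steps. Between CHF right and CON left ventricles the gap was 1.91 with a pooled SD of 1.17. The ranges did not overlap, but their nearest arrays stood at -0.051 (CHF right 9) and 0.01 (CON left 22). This step crosses the ventricles, the difference for which Penk was chosen, so nothing is read from its size. Between HYP and CON right ventricles the gap was 1.74 with a pooled SD of 1.50, and the ranges overlapped. The other 3 steps were smaller than the spread: 0.434 between CHF and HYP right ventricles, 0.75 between CHF and CON left ventricles, and 0.267 between HYP and CHF left ventricles.

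Over all conditions, the 18 right ventricle arrays averaged -2.03 ± 1.64 and the 6 left ventricle arrays 1.33 ± 1.83 (SD). The lowest left ventricle array, HYP 5, lay above 14 of the right ventricle arrays, and 1 right ventricle array lay above the second lowest left ventricle array. Right minus left was -2.66 in CHF, -3.36 in HYP and -4.08 in CON. The mean of the 3 conditions was -3.36, the fifth lowest of 2494 features. Hba-a1 (-6.29), Hbb (-5.89) and Hbb-b1 (-5.00), which encode haemoglobin chains, and Tap2 (-5.45), a subunit of the peptide transporter for antigen presentation, were lower still. The next features above Penk were Slc25a4 (-3.21), the mitochondrial ADP/ATP carrier of muscle, and Nppa (-3.12), the atrial natriuretic peptide precursor. Of all features, 18.3% passed an adjusted p of 0.05 between ventricles in limma, a background from which nothing is read for a gene chosen on that contrast. With the sign turned on the 5 arrays the mean for Penk was -1.64, and 0 of 2494 features passed, with 299 at an unadjusted p under 0.05. In whole tissue, fewer cells of a type and less RNA per cell cannot be told apart.

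Penk scores on several right ventricle arrays were at the edge of the array's distribution. On 8 arrays fewer than 1% of the probes lay below Penk, and these were 2 CHF, 2 HYP and 4 CON right ventricle arrays. On CON array 19 only 2 of 3416 probes were lower than Penk, on CON array 20 it was 5 of 3605, and on CON array 22 it was 8 of 2584. At the other end, 99.7% of the probes lay below Penk on HYP left ventricle array 3. Penk also varied more within groups than most features. Its within-group SD over the 24 arrays was 1.59, the median feature had 0.618, and 63 of 2494 features had a larger one. In the right ventricle alone the SD was 1.41 against a median of 0.662, and 211 of 3199 features had a larger one.

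The question for the conditions was whether Penk differed in the right ventricle between CHF or HYP and CON samples. Penk averaged -1.17 in CHF and -3.34 in CON right ventricles, a difference of 2.17 ± 0.743 (SE, n = 6 and 6). This did not pass the threshold in limma across 3199 features (adjusted p = 0.31, unadjusted p = 0.00882). In that comparison 29 features passed, 0.907% of those tested, and 272 had an unadjusted p under 0.05, among which Penk ranked 91 by p. An exact permutation test over the 12 arrays, 2-sided and for Penk alone, gave p = 0.0303 over 924 regroupings. The call changed when CHF arrays 10 and 14 had their sign turned: the difference was then 3.92 ± 0.808 and passed (limma adjusted p = 0.0392). With these 2 arrays left out it was 2.90 and did not pass (limma adjusted p = 0.2). The labels number the samples without stating separate animals, so these p-values measure the spread between samples, which may be technical.

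Penk averaged -1.60 in HYP and -3.34 in CON right ventricles, a difference of 1.74 ± 0.743 (SE, n = 6 and 6). It did not pass (limma adjusted p = 0.9997, unadjusted p = 0.0306), and the exact permutation test gave p = 0.0736. Here 9 features passed, 0.281% of those tested. The smallest of the right ventricle differences was that between CHF and HYP. CHF minus HYP was 0.434 ± 0.743 in the right ventricle (limma adjusted p = 0.982, exact permutation p = 0.558). In this comparison 0 features passed in limma, with 158 at an unadjusted p under 0.05.

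In the left ventricle the same differences were smaller than their errors. CHF minus CON was 0.75 ± 1.46, HYP minus CON was 1.02 ± 1.46 and CHF minus HYP was -0.267 ± 1.46 (SE, n = 2 each, limma adjusted p from 0.982 to 0.9998). With 2 arrays in a group the exact permutation test cannot give a p under 0.333. The HYP minus CON difference rested on 1 array: it was -1.65 without HYP array 3 and 3.68 without HYP array 5. The effect of a condition was also compared between ventricles directly. The right minus left difference of the effect was 1.42 ± 1.69 for CHF minus CON, 0.722 ± 1.69 for HYP minus CON and 0.701 ± 1.69 for CHF minus HYP, and none of these 3 passed (limma adjusted p from 0.9992 to 1). Among all 2494 features 0 passed in limma in any left ventricle comparison or difference of effects, with between 22 and 75 at an unadjusted p under 0.05.

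**Figure D2:**
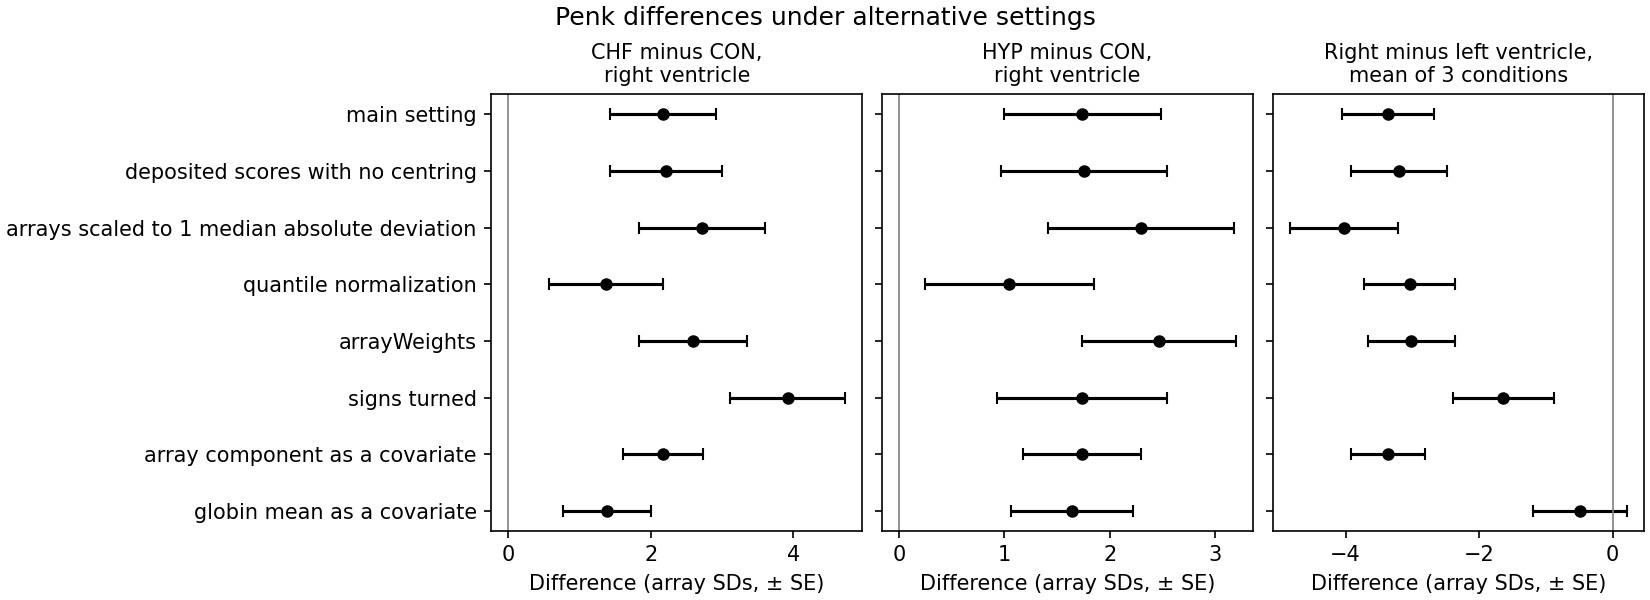
Penk differences (x axis, in array SDs; bars are the SE from limma) under the main setting and 7 alternatives. CHF minus CON and HYP minus CON in the right ventricle stay above 0 in all 8 settings shown. Right minus left is -3.36 in the main setting, -1.64 with signs turned and -0.489 with the haemoglobin mean as a covariate. The haemoglobin genes were chosen after their values were seen, so nothing is read from that last value.

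The genes whose scores followed Penk most closely were those of haemoglobin. Over the 24 arrays, with at least 18 shared and 2404 named genes compared, Pearson's r with Penk was 0.807 for Hbb, 0.797 for Hba-a1, 0.765 for Tap2 and 0.746 for Hbb-b1. These correlations hold the ventricle difference that chose Penk, and they are given as a description. After the 6 group means were removed, r was 0.800, 0.774, 0.704 and 0.651 in the same order. Hbb and Hbb-b1 are similar in sequence, and their probes may share signal. Cckbr, a cholecystokinin and gastrin receptor (r = 0.736), and Gls2, a glutaminase (r = 0.700), came next. Lgals9, a galectin (r = 0.699), and Vtn, the plasma and matrix protein vitronectin (r = 0.676), completed the 8 genes most like Penk. Vtn had the highest correlation of deviations among these 8, at 0.856. The 3 genes least like Penk were Mrs2, a mitochondrial magnesium channel (r = -0.786), Sycp1, a protein of the meiotic synaptonemal complex (r = -0.771), and Ptgs1, a cyclooxygenase (r = -0.765). The median over 2701 features was -0.0329.

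The list of genes most like Penk depended on the left ventricle arrays. With Spearman's rho or with signs turned, 6 of the 8 stayed on it. On the 18 right ventricle arrays alone it shared 0 of the 8, and was led by Casr, the calcium-sensing receptor, and Hspb3, a small heat shock protein of muscle. On those arrays r with Penk was 0.726 for Vtn, 0.705 for Hbb and 0.672 for Hba-a1. The rest of the 8 ran from 0.399 for Hbb-b1 to 0.52 for Cckbr, with Tap2 at 0.425. Deviations from the group means on these arrays had r = 0.475 for Tap2 and 0.404 for Hbb-b1, against 0.707 for Hbb and 0.67 for Hba-a1.

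**Figure D3:**
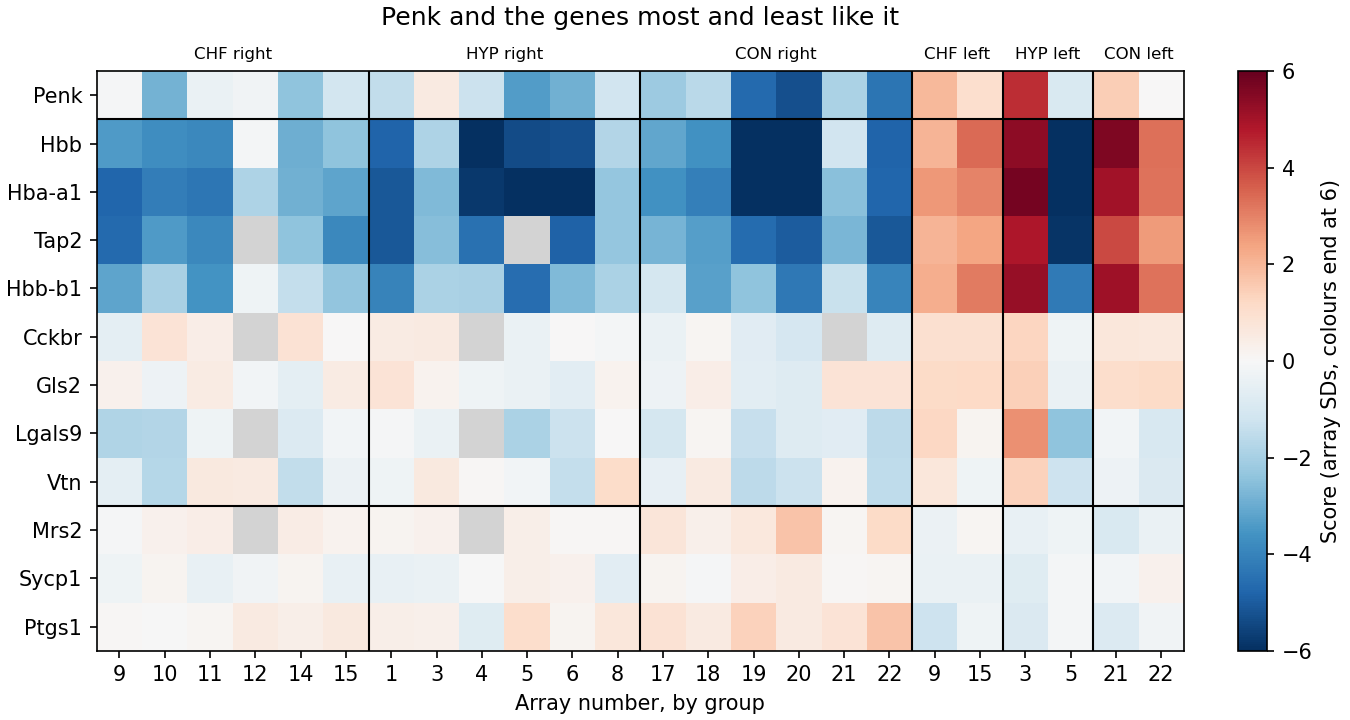
Median-centred scores, in array SDs, of Penk, the 8 named genes most like it and the 3 least like it (rows) on the 24 arrays (columns, by group and label number). Red is above and blue below the array's median and grey is no value; Penk and the haemoglobin genes are low on most right ventricle arrays. The haemoglobin genes are high on the left ventricle arrays other than HYP 5, whereas Penk is at -0.912 on HYP 5 and at the median (0.01) on CON 22.

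The mean score of Hbb, Hba-a1 and Hbb-b1 was -2.80 ± 1.17 in CHF, -3.91 ± 1.45 in HYP and -4.06 ± 1.81 in CON right ventricles (SD, n = 6 each). In left ventricles it averaged 2.72 in CHF, -0.560 in HYP and 4.25 in CON. The order of the right ventricle groups was that of Penk. Hbb did not pass between CHF and CON right ventricles (1.80 ± 1.04, limma adjusted p = 0.658), and neither did Penk (2.17 ± 0.743, limma adjusted p = 0.31). HYP left ventricle array 5 stood apart with a haemoglobin mean of -6.55, below which lay 1 right ventricle array, and it also had the lowest Penk score of its ventricle. Penk was nevertheless higher there, at -0.912, than on 14 right ventricle arrays.

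Within the right ventricle, deviations from the group means were also compared. Haemoglobin and Alas2 were set against Penk after their values had been seen on these arrays, so those relations are descriptions with no test. Over 18 arrays, the deviations of Penk and of the haemoglobin mean had r = 0.667 and rho = 0.662. Without CON 21 and CHF 12, the arrays farthest from the median haemoglobin deviation, r was 0.616. The first component of the arrays' deviations held 43.3% of the variance over 1655 of the 1656 features with a value on all 18 arrays. Its sign was set to run with Penk. Penk also followed this component (r = 0.688, rho = 0.659, permutation p = 0.0025 and 0.0036, adjusted p = 0.005 and 0.0072 over 2 relations). Since the component holds so much of the variance, features in general tend to follow it. How many reach such an r was not counted, so these p-values show nothing particular to Penk. Without CHF 14 and CHF 10, r was 0.617. The number of values on an array showed no such relation (r = -0.02, rho = 0.0671, permutation p = 0.938 and 0.796, adjusted to the same values).

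Alas2, the erythroid enzyme that starts haem synthesis, ran the other way. Over the 17 right ventricle arrays with a value, its deviations had r = -0.676 and rho = -0.703 with those of Penk, and r was -0.782 without HYP 4 and CHF 14. Of the 7 erythrocyte markers listed, 3 had a value: Hbb, Alas2 and Slc4a1, the anion exchanger of the red cell, which had 5 values. Hbb and Alas2 were both lower in right than in left ventricles by limma's adjusted p, where 6.54% of all features were. With signs turned, 0 of 2494 features passed. Both genes were set against Penk after their values had been seen, so nothing is read from these calls. With the haemoglobin mean as a covariate, right minus left for Penk was -0.489 ± 0.702 (SE), against -3.36 ± 0.690 without it. CHF minus CON in the right ventricle was then 1.38 (limma adjusted p = 0.649) and HYP minus CON 1.64. The haemoglobin genes were chosen after their values were seen, and their right minus left differences were lower still than that of Penk. A drop in right minus left was therefore largely fixed by that choice, and nothing is read from it. The part of blood in the Penk scores was not tested.

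**Figure D4:**
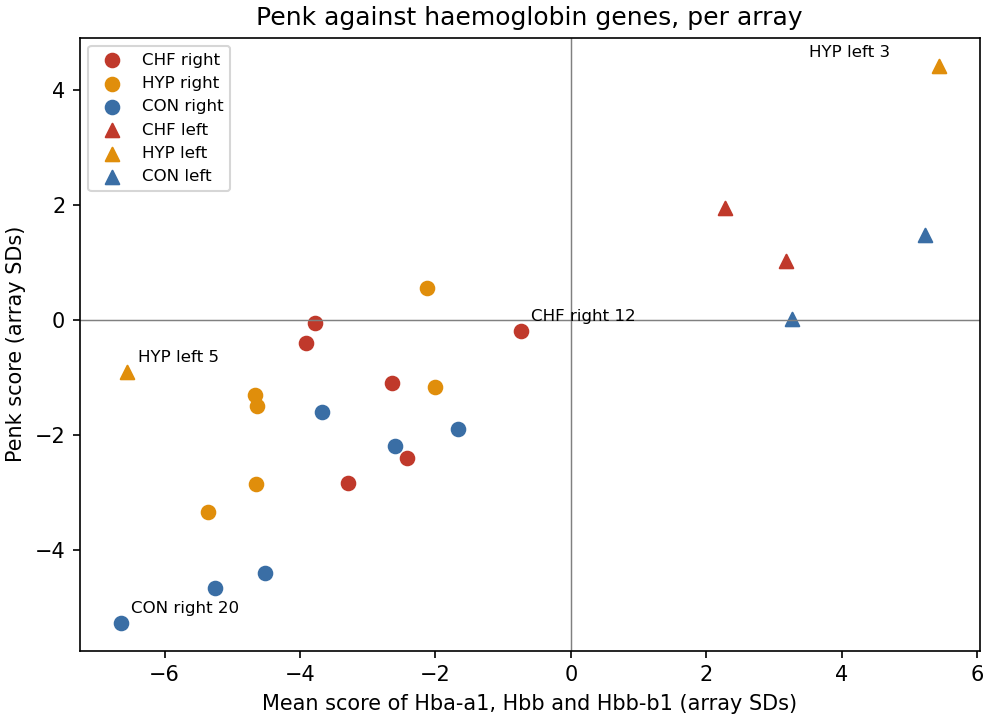
Penk score against the mean score of Hba-a1, Hbb and Hbb-b1 on each array, both in array SDs. Circles are right and triangles left ventricle arrays; HYP left ventricle array 5 lies at -6.55 on the haemoglobin axis among the right ventricle arrays, and the CON right ventricle array 20 is lowest on both axes.

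Opioid genes, Penk among them, were examined through 7 lists with 116 entries, of which 83 had a value and 63 could be tested in the right ventricle. In CHF against CON, HYP against CON and CHF against HYP, 0 of the 63 passed in limma. At an unadjusted p under 0.05 stood 7, 5 and 5 of them, or 11.1%, 7.94% and 7.94%, beside 8.5%, 4.1% and 4.94% of all features (272, 131 and 158). Penk was itself among the 7 and among the first 5 (limma unadjusted p = 0.00882 and 0.0306). The median difference of the 63 was -0.0835, -0.0638 and -0.0128, beside -0.0992, -0.0456 and -0.0442 over all features.

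Among the precursors, Pnoc, which encodes pronociceptin, had a value on 20 arrays. It stood lower in the right than in the left ventricle, as Penk did, but the difference of -0.46 did not pass (limma adjusted p = 0.44). It averaged -0.406 ± 0.905 on 14 right and 0.0447 ± 0.658 on 6 left ventricle arrays (SD), and CHF minus CON in the right ventricle was -0.655 ± 0.614 (SE, limma adjusted p = 0.8). Pdyn, the prodynorphin gene, had a value on 1 array, and Pomc, the pro-opiomelanocortin gene, was not analysed here.

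Of the receptors, Oprm1, Oprd1 and Ackr3 had values on all 24 arrays. Oprm1, the mu opioid receptor, averaged -0.167 ± 0.941 in CHF, -0.384 ± 0.889 in HYP and -1.05 ± 0.323 in CON right ventricles (SD, n = 6 each). CHF minus CON was 0.88 ± 0.428 and did not pass (limma adjusted p = 0.593). The difference was 0.277 with signs turned and 0.345 without CHF arrays 10 and 14, settings under which that of Penk was larger than in the main one. Oprd1, the delta receptor, at which enkephalins act most strongly, averaged 0.410 ± 0.700 in CHF and -0.217 ± 0.497 in CON right ventricles. Its CHF minus CON difference of 0.627 ± 0.339 did not pass (limma adjusted p = 0.64) and was -0.183 with signs turned. Between ventricles 18.3% of all features passed, 11.8% as higher and 6.54% as lower in the right. Oprd1 was lower in the right by 1.16 ± 0.270 (limma adjusted p = 0.00867), with -0.0015 ± 0.623 on 18 right and 1.16 ± 0.483 on 6 left arrays (SD). Ackr3, an atypical chemokine receptor that also binds opioid peptides, was higher in the right by 0.905 ± 0.257 (limma adjusted p = 0.0223). Neither passed with signs turned or with the haemoglobin mean as a covariate, and with 1 array left out Oprd1 passed in 24 of 24 fits and Ackr3 in 20. Oprk1 and Oprl1, the kappa and nociceptin receptors, had 0 values.

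**Figure D5:**
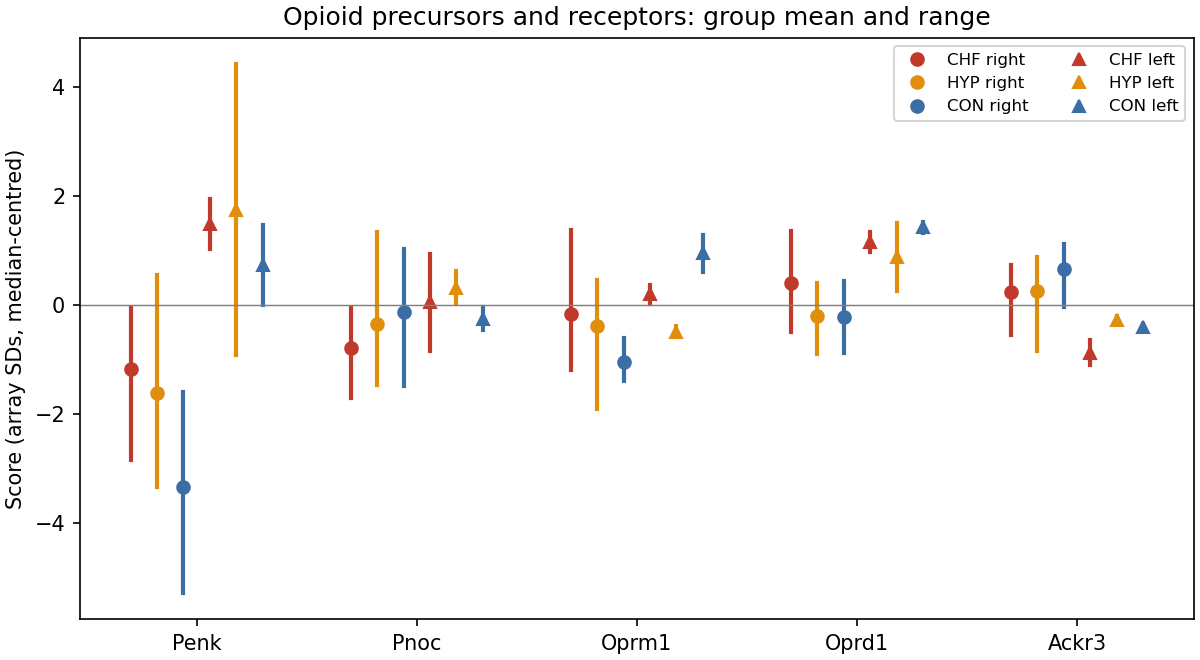
Group mean (marker) and range over arrays (line) of the score, in array SDs, for the opioid precursors Penk and Pnoc and the receptors Oprm1, Oprd1 and Ackr3. Circles are right and triangles left ventricle groups, coloured by condition; Penk spans a wider range than the other 4 genes.

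Of 11 precursor processing genes tested in CHF against CON right ventricles, 1 was above 0, as were 41.2% of all features, and 0 passed (median -0.325, from -0.680 for Cpd, a carboxypeptidase, to 0.732 for Scg5, the chaperone of convertase PC2). Between ventricles 6.54% of all features passed as lower in the right. Pam, which amidates peptides, was lower there by 1.72 ± 0.548 (limma adjusted p = 0.0362). It passed in 12 of 24 fits with 1 array left out (-1.87 to -1.59) and was -0.716 with signs turned, where it did not pass. Pcsk2, the convertase PC2, had a HYP minus CON difference of 0.633 ± 0.298 (limma adjusted p = 0.9997). Of the enkephalin-degrading peptidases, 0 of 6 passed. Mme, which encodes neprilysin, had the smallest p, with a HYP minus CON difference of -0.832 ± 0.338 (limma adjusted p = 0.9997).

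In the Gi signalling list, 15 of 25 tested genes were above 0 in CHF against CON right ventricles and 0 passed. The smallest p belonged to Adcy8, an adenylyl cyclase, at 2.54 ± 0.855 (limma adjusted p = 0.301, but 0.0244 once the array component entered as a covariate). That covariate was added after the data were seen. Adcy8 passed in 1 of 11 other settings, where it ran from 0.597 to 3.13, and in 0 of 18 fits with 1 array left out. Gnb1, a G protein beta subunit, stood at 0.729 ± 0.256 (limma adjusted p = 0.319). Between ventricles Gnai3, an inhibitory alpha subunit, was higher in the right by 1.24 ± 0.333 (limma adjusted p = 0.0174) and Gnb1 by 0.789 ± 0.266 (limma adjusted p = 0.0442). With 1 array left out, Gnai3 passed in 20 of 24 fits and Gnb1 in 8 of 24. Gnb1 was 0.378 without HYP left ventricle array 5 and 1.20 without HYP left ventricle array 3. Chga, the granule protein chromogranin A, had the smallest adjusted p of the 7 lists in CHF against CON, at 0.843 ± 0.256 (limma adjusted p = 0.201). Among the CRE and AP-1 factors, a list named for regulatory elements known in the Penk promoter, 0 of 5 tested passed, and the differences ran from -0.676 for Cebpb to 0.0948 for Egr1. Between ventricles, with Penk itself left out because it was chosen on that contrast, 6 of the 48 testable genes of all lists passed, 3 higher and 3 lower in the right. That is beside a background of 18.3%, and 0 of the 48 passed with signs turned.

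Markers of other cells that could hold Penk were compared beside it. Of 17 sympathetic neuron markers 14 had a value, and their mean score was 0.343 ± 0.434 on 18 right and 0.260 ± 0.259 on 6 left ventricle arrays (SD). In CHF against CON right ventricles 0 of 10 tested passed, with a median of -0.063. The cardiomyocyte markers averaged -0.123 ± 0.819 on right and 0.875 ± 0.252 on left arrays, and 3 of 11 tested were lower in the right in limma, where 6.54% of all features were. In CHF against CON right ventricles 0 of 12 cardiomyocyte markers passed, with a median of -0.114. In that comparison 0.907% of all features passed. There 1 of 6 smooth muscle markers was higher, Acta2, the smooth muscle alpha-actin (1.58 ± 0.252, limma adjusted p = 0.00132). Of the endothelial markers 1 of 4 was higher, Cav1, the caveolae protein caveolin (4.92 ± 0.868, limma adjusted p = 0.0302). With signs turned Acta2 was 1.25 and did not pass and Cav1 was -3.68, and with 1 array left out Cav1 passed in 12 of 16 fits. In the other 7 marker lists 0 passed. The fibroblast markers averaged 0.437 ± 0.360 on right and 0.0393 ± 0.243 on left arrays, and 3 of 8 tested were higher in the right, where 11.8% of all features were. The part of cell composition in the Penk scores was not tested.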

How the data were processed

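The authors deposited 1 table of scores per probe and array. The sources used here do not give the scale, dyes, scanner, background correction or normalization. The deposited scores had a mean from -0.0345 to 0.0713 and an SD from 0.870 to 1.01 on each array, and were read as standardised ratios to the pool. Signal over background is not recorded in them, and precision is limited by how many arrays there are. Of 4803 probes, 4278 had 1 gene symbol in the platform annotation, 4 several and 521 none. Entrez identifiers in the RefSeq table of the GRCr8 assembly, used for names only, were found for 4257 probes and changed 0 symbols. Array medians lay between -0.2 and 0.217, and each array was centred on its median. Probes of a gene were averaged on each array, giving 4651 features. Features with fewer than 2 values in any group of a fit were left out of it.

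Groups were compared by limma (version 3.58.1, R 4.3.3), using lmFit, contrasts.fit and eBayes; p-values were adjusted over all features by Benjamini-Hochberg, with a threshold of 0.05. For the right ventricle, 18 arrays in 3 groups were fitted. For the rest, 24 arrays in 6 groups were fitted, so that the left ventricle pairs were assumed to vary like the other groups. The code was tested on simulated data. In every pair of arrays correlating below -0.3, 1 was turned for the alternative with signs turned. Named were Penk on every array, the measured opioid precursors and receptors, at most 3 members of each other list by smallest unadjusted p, and the 8 genes most and 3 least like Penk by Pearson correlation. Scg5, Slc25a4, Alas2, Slc4a1, Casr, Hspb3, Acta2 and Cav1 fall outside this rule and were named after their values were seen. Penk and the gene lists were chosen with earlier results of these data known.

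Alternatives were the deposited scores without centring, scaling by the median absolute deviation, quantile normalization, array weights, turned signs, features on every array or on at least 1 array per group, groups fitted alone, the array number as a block, left ventricle arrays of 2 decimals left out, the exact permutation test and each array left out. After the data were seen, the first array component or the haemoglobin mean as a covariate and the turned arrays left out were added.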

Additional observations from a re-analysis of the deposited data

How the results depend on the processing

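Direction was kept in 228 of 234 values of Penk differences with 1 array left out, and 111 of 120 values under other settings kept both direction and side of the threshold or moved by less than the spread. CHF minus CON in the right ventricle passed with signs turned (3.92) and, unadjusted, in the exact permutation test (2.17, p = 0.0303), and was 1.79 to 2.52 with 1 array left out, at a limma adjusted p of 0.178 or more. With 1 array left out, HYP minus CON was 1.31 to 2.09 and CHF minus HYP 0.0869 to 0.867 in the right ventricle. CHF minus HYP there was -0.258 with the haemoglobin mean as a covariate. In the left ventricle CHF minus CON ranged from 0.0195 to 1.48, HYP minus CON from -1.65 to 3.68 and CHF minus HYP from -2.94 to 2.40, and the last was 0.0652 after quantile normalization and 0.193 without the arrays of 2 decimals. The difference of effects ranged from 0.693 to 2.15 for CHF minus CON, from -1.95 to 3.39 for HYP minus CON and from -1.97 to 3.37 for CHF minus HYP. For HYP minus CON it was -0.758 with signs turned and -1.77 with the haemoglobin covariate. Without HYP left ventricle array 3, CHF array 15, HYP array 5 or CON array 21 of the left ventricle, 1 or more of these reversed. Right minus left was -4.25 to -2.47 with 1 array left out, -1.64 with signs turned and -0.489 with the haemoglobin covariate, which was chosen after its values were seen. In CHF minus CON, Oprd1 was -0.183 and Cav1 -3.68 with signs turned. The cause of these changes was not tested.

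Features passing in CHF minus CON of the right ventricle numbered 29, 9 with signs turned, 49 with the array component as a covariate, 18 without arrays 10 and 14, and 16 to 38 with 1 array left out. In HYP minus CON they numbered 9, 1 with signs turned, 0 with the groups fitted alone, and 3 to 9 with 1 array left out. Between ventricles they numbered 457, 0 with signs turned, 1079 with array weights, 962 with the component, 224 with the haemoglobin covariate, and 140 to 683 with 1 array left out. The opioid genes among them, Penk not counted because it was chosen on this contrast, numbered 6, then 0, 20 and 17 under the first 3 of these settings, and 1 to 13 with 1 array left out. HYP minus CON in the left ventricle had 0, and 96 with signs turned.

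Array numbers 3, 5, 9, 15, 21 and 22 occur in both ventricles, but the labels do not say that they mark 1 animal. Deviations of same-numbered arrays correlated from -0.20 to 0.305, over 0.1 in 3 of 6 pairs, and 5 of 12 arrays correlated best with their own number, so pairing is not established. With the number as a random block, right minus left for Penk was -3.29, with 744 features and 13 opioid genes other than Penk passing, and as a fixed block on 12 arrays it was -3.03. The block changed no call of a Penk difference. Within numbers, right minus left averaged -3.03 ± 0.995 (SD, n = 6) and was -3.24 to -2.76 with 1 array left out. Right minus left without the arrays of 2 decimals could not be fitted, since no CON left ventricle array remains, and each probe alone was not run, since Penk has 1 probe.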

Other observations

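Tap2, a gene of the major histocompatibility complex, followed the haemoglobin genes closely across arrays. Its r with the mean of Hbb, Hba-a1 and Hbb-b1 was 0.986 over the arrays with a value. The same r was 0.991, 0.995 and 0.973 for these genes themselves, which are part of that mean. For the other genes most like Penk it was lower, at 0.732 for Cckbr, 0.750 for Gls2, 0.676 for Lgals9 and 0.435 for Vtn. Vtn had the lowest r with haemoglobin of the 8, while its deviations from the group means followed those of Penk at 0.856. These correlations with haemoglobin include the difference between ventricles and are descriptions.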
